A study of Mus musculus with 3 samples.

Results

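Antibody genes, plasma cell genes and B cell genes were followed in mouse epididymis, the coiled duct downstream of the testis where sperm mature, with and without the testes. The group comprised every row whose symbol began with Ighv, Igkv, Iglv, Ighj, Igkj, Iglj, Ighc, Igkc or Iglc, together with 14 further genes named singly. That gave 64 of the 23538 rows listed: 46 variable (V) genes, 11 constant genes of the heavy and light chains, and 7 genes that encode no antibody chain. Tissue came from male mice of the outbred ICR strain, 13 animals in all, and the labels record no engineered allele. The Cas+T group (5 mice) had lost both testes and received testosterone propionate in corn oil under the skin, at 5 mg/kg on 10 days running, starting 14 days after surgery. The Cas+CO group (5 mice) was castrated in the same way and received the corn oil alone. The Sham group (3 mice) had the operation without removal of the testes, and no injection is recorded for it. Each group gave 1 library. Whether a library pools all animals of its group is not stated.

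An antibody is built from heavy and light chains. Each B cell joins a V gene to joining segments and a constant gene, and the constant gene sets the class: Ighm for IgM, Ighd for IgD, Ighg1, Ighg2b, Ighg2c and Ighg3 for the IgG subclasses, and Igha for IgA. Naive B cells carry membrane IgM and IgD beside the signalling chains Cd79a and Cd79b, whereas plasma cells secrete antibody in bulk. Secreted IgA and IgM can be joined into polymers by the J chain (Jchain), and the polymeric immunoglobulin receptor (Pigr), made by epithelial cells, carries such polymers across mucosal epithelium into the lumen.

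The part of the constant chain that the J chain binds can be seen in the reference sequence. The last 63 coding bases of the secreted forms of Igha, Ighm and Ighg2b are shown, 5′ to 3′ on the gene's strand, from GENCODE M21 transcripts (GRCm38, minus strand, chr12:113258771-113258833, chr12:113420870-113420932 and chr12:113306392-113306454), with cysteine codons in capitals.
Igha: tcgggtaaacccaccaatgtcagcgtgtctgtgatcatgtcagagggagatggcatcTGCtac
Ighm: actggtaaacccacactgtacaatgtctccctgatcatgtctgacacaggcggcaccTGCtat
Ighg2b: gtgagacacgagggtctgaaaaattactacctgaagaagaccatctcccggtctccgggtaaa
Igha and Ighm both ended in a tail with a cysteine codon next to last, the residue through which the J chain is attached, and the stretch of Ighg2b held no cysteine codon.

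The V genes that led in the data are shown by the last 60 coding bases of their germline sequence, where the V gene ends and joining begins (GRCm38, minus strand, chr12:113859149-113859208, chr12:115952538-115952597, chr6:70335841-70335900 and chr6:68631963-68632022). The capitals mark the last cysteine codon, the conserved residue that precedes the third binding loop.
Ighv5-17: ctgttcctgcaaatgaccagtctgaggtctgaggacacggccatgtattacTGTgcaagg
Ighv1-82: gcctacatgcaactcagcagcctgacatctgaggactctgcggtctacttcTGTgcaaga
Igkv6-20: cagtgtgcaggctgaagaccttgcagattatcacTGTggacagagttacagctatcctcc
Igkv10-96: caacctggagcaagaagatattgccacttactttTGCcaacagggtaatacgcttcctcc
These are sequences of the C57BL/6J reference, and the ICR animals' own V genes were not examined. The heavy chain V genes end shortly after this codon, and the kappa V genes run further into the loop.

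Levels were read as TPM, a measure of transcripts that takes gene length into account and sums to 1000000 in each library. TPM keeps no record of the reads behind a value. The depth is therefore unknown, and counting intervals cannot be given. With 1 library per group there was no replicate error and no test. Each ratio compares 2 libraries, and in bulk tissue fewer cells of a type and less RNA per cell cannot be told apart. Ratios are differences of log2(TPM + 1), which makes differences of low genes look smaller. Comparison required 1 TPM or more in 1 or both of the 2 libraries, and a gene counted as higher or lower at 2-fold or more. Over all rows the median log2 ratio of Cas+CO over Sham was 0.76. Bringing the libraries to the same median over 12682 genes lowered log2 values by 0.35 in Cas+T and 0.80 in Cas+CO relative to Sham. The keratin gene Krt8, a marker of epithelium, was at 363 TPM in Cas+T, 304 TPM in Cas+CO and 314 TPM in Sham. The defining epididymal gene Crisp1 was at 32799 TPM in Cas+T, 6654 TPM in Cas+CO and 44116 TPM in Sham.

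The antibody genes were at their highest in the Cas+CO library. The 64 genes summed to 17.8 TPM in Cas+T, 899 TPM in Cas+CO and 8.99 TPM in Sham. At 1 TPM or more there were 2 of the 64 in Cas+T, 54 in Cas+CO and 2 in Sham, and the pair in Cas+T and in Sham was Ighm and Igkc. Of all 23538 rows, 14033 reached 1 TPM in Cas+T, 15494 in Cas+CO and 13708 in Sham. Listed at exactly 0 were 45 of the 64 in Cas+T, 3 in Cas+CO and 50 in Sham. By any amount, 61 of the 64 stood higher in Cas+CO than in Sham and 61 stood lower in Cas+T than in Cas+CO. Over all 23538 rows these shares were 72.9% higher and 68.2% lower.

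Among the heavy chain constant genes, which lie together on chromosome 12, IgM was the most abundant class in every library. Ighm (ENSMUSG00000076617; GRCm38 chromosome 12, 113418558 to 113422730) was at 6.27 TPM in Cas+T, 63.3 TPM in Cas+CO and 4.71 TPM in Sham. Igha (ENSMUSG00000095079; chromosome 12, 113254830 to 113260236) was listed at 0 in Cas+T, at 36.55 TPM in Cas+CO and at 0.21 TPM in Sham. Ighg2b was listed at 0 in Cas+T, at 28.2 TPM in Cas+CO and at 0 in Sham. Cas+CO was thus high for each of these classes, and the IgA and IgG2b genes were at or near 0 in both other libraries.

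Ighg1 was at 0.13 TPM in Cas+T, 17.96 TPM in Cas+CO and 0.11 TPM in Sham. Ighg2c was at 4.09 TPM in Cas+CO and listed at 0 in Cas+T and in Sham. Ighg3 was at 0.13 TPM in Cas+T, 3.15 TPM in Cas+CO and listed at 0 in Sham. Ighd, used by naive B cells, was the lowest constant gene in Cas+CO at 1.88 TPM, against 0.49 TPM in Cas+T and 0.12 TPM in Sham. The secreted forms of Ighg2b and Ighg2c share 85.9% of their coding bases, the closest pair among the classes, so reads could be divided between them in a way the files do not show. Some mouse strains carry a Ighg2a gene in the place of Ighg2c, and which of them the ICR animals carried is not given in the sources used here.

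**Figure D1:**
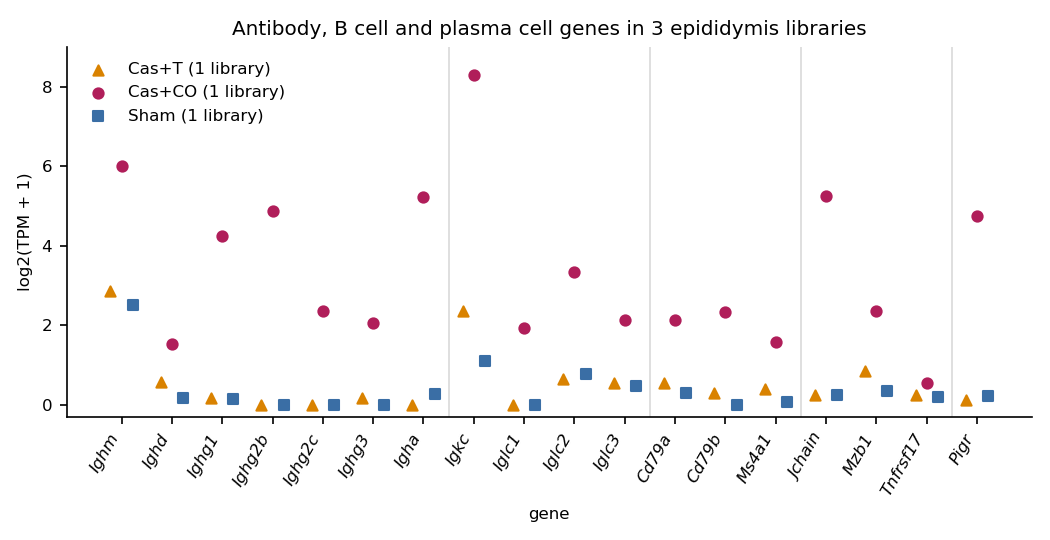
Level of each constant, B cell, plasma cell and epithelial transport gene on a log2(TPM + 1) axis, with 1 point per library (triangles Cas+T, circles Cas+CO, squares Sham). The Cas+CO point is the highest for all 18 genes, with Igkc at 315 TPM the highest of all, while Tnfrsf17 stays under 1 TPM in every library.

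Class use differed between the libraries. The heavy chain constant genes summed to 7.02 TPM in Cas+T, 155 TPM in Cas+CO and 5.15 TPM in Sham. Ighm held 89.3% of that sum in Cas+T, 40.8% in Cas+CO and 91.5% in Sham. Igha held none of it in Cas+T, 23.6% in Cas+CO and 4.08% in Sham, where the share rests on 0.21 TPM. The IgG genes together held 3.70% in Cas+T, 34.4% in Cas+CO and 2.14% in Sham. Shares in Cas+T and Sham stand on very low sums and carry an unknown counting error. Within the IgG genes of Cas+CO, Ighg2b held 52.8%, Ighg1 33.6%, Ighg2c 7.65% and Ighg3 5.90%. By single gene the order in Cas+CO was Ighm, Igha, Ighg2b, Ighg1, Ighg2c, Ighg3 and Ighd, and no spread is available to say which neighbours in that order differ.

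**Figure D2:**
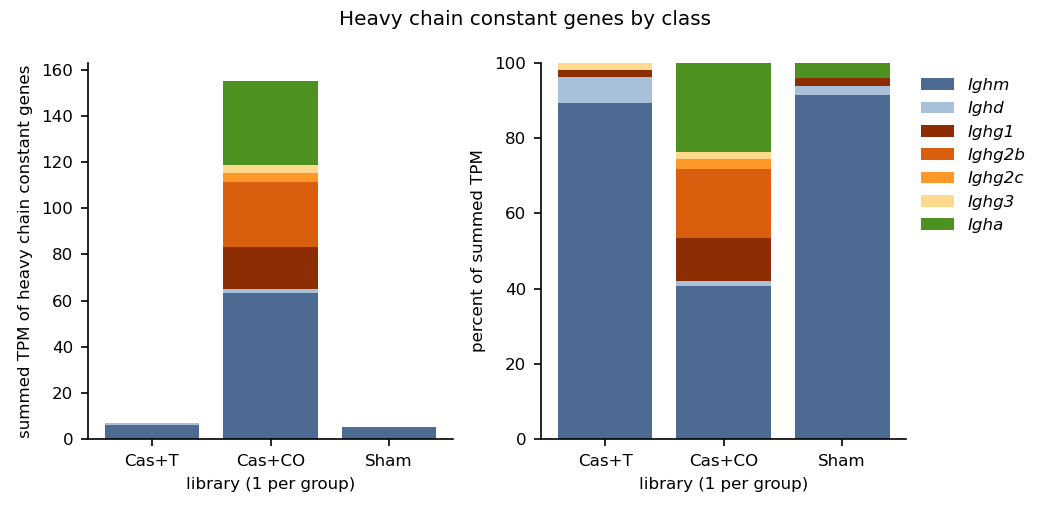
Heavy chain constant genes by class in each library (1 per group), as summed TPM on the left and as a percent of that sum on the right. Only the Cas+CO bar is tall, at 155 TPM, and it is divided between IgM, IgG and IgA genes, while Ighm fills 89.3% of the Cas+T bar and 91.5% of the Sham bar.

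The class sums moved by unequal amounts. On the log2(TPM + 1) scale Ighm was 3.49 higher in Cas+CO than in Sham, Igha 4.96 higher and the summed IgG genes 5.62 higher. In Cas+T against Cas+CO the differences were −3.14 for Ighm, −5.23 for Igha and −5.43 for the summed IgG genes. Since Ighm was above 4 TPM in Cas+T and in Sham, its ratio started from a level that the switched classes did not have there.

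Light chains in Cas+CO were mostly kappa. Igkc (ENSMUSG00000076609; chromosome 6, 70726435 to 70726966) was at 4.16 TPM in Cas+T, 315 TPM in Cas+CO and 1.15 TPM in Sham. Among all 16192 genes compared between Cas+CO and Sham, Igkc had the rank of 2 from the top. Of the lambda constant genes on chromosome 16, Iglc2 was at 0.56 TPM in Cas+T, 9.21 TPM in Cas+CO and 0.70 TPM in Sham. Iglc3 was at 0.46 TPM in Cas+T, 3.39 TPM in Cas+CO and 0.38 TPM in Sham, and Iglc1 was at 2.80 TPM in Cas+CO and listed at 0 in both others. Kappa made up 80.3% of light chain constant TPM in Cas+T, 95.3% in Cas+CO and 51.6% in Sham. The sums behind these shares were only 5.18 TPM in Cas+T and 2.23 TPM in Sham, so both carry an unknown counting error. In Cas+CO the V genes gave a kappa share of 94.9%. Summed light chain constant genes over summed heavy chain constant genes came to 0.738 in Cas+T, 2.13 in Cas+CO and 0.433 in Sham, so light exceeded heavy in Cas+CO alone. The ratios in Cas+T and Sham rest on the same low light chain sums.

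Many V genes were represented in Cas+CO. Of the 46 V genes listed, none reached 1 TPM in Cas+T, 37 did in Cas+CO and none did in Sham. In Cas+CO these were 15 heavy chain, 20 kappa and 2 lambda V genes. The annotation holds 113, 100 and 3 V genes outside pseudogenes at these loci. Of all 23538 rows, 14033 reached 1 TPM in Cas+T, 15494 in Cas+CO and 13708 in Sham. Above 0 there were 5 V genes in Cas+T, 43 in Cas+CO and 1 in Sham. In Cas+T these were Igkv17-121 at 0.79 TPM, Ighv14-2 at 0.78 TPM, Igkv1-135 at 0.60 TPM, and Igkv1-117 and Ighv1-64 at 0.57 TPM each. The V gene seen in Sham was Igkv8-30, at 0.58 TPM. The lowest V value above 0 in Cas+CO was 0.74 TPM, close to the 1 TPM limit. No row of the files was at 0 in every library, so a V gene listed for Cas+CO alone had to be higher there, and a V gene at 1 TPM against 0 lies at 2-fold by construction.

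The leading heavy chain V genes in Cas+CO were Ighv5-17 at 54.6 TPM and Ighv1-82 at 51.1 TPM, both listed at 0 in Cas+T and in Sham. Next came Ighv9-3 at 7.70 TPM, Ighv2-9 at 6.26 TPM and Ighv3-8 at 5.93 TPM, also at 0 in both other libraries. Among heavy chain V rows with a symbol, the top gene held 34.9% of TPM in Cas+CO and the top 3 held 72.6%. The heavy chain V genes thus had a pair far above the rest.

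Among kappa V genes in Cas+CO, Igkv6-20 was at 54.2 TPM and Igkv10-96 at 28.3 TPM, followed by Igkv6-29 at 16.9 TPM, Igkv1-110 at 16.8 TPM and Igkv12-44 at 10.0 TPM. All 5 were listed at 0 in Cas+T and in Sham. The top kappa V gene held 31.6% of kappa V TPM and the top 3 held 58.0%. Of the lambda V genes, Iglv1 was at 7.53 TPM and Iglv3 at 1.59 TPM in Cas+CO, both at 0 elsewhere. Summed heavy chain V TPM came to 101% of summed heavy chain constant TPM in Cas+CO (156 against 155 TPM), and summed kappa V TPM to 54.4% of Igkc. These V sums, and the shares of the top V genes, leave out V rows without a symbol. Such rows held a further 30.7 TPM of heavy chain and 45.1 TPM of kappa V genes in Cas+CO. The 101% and 54.4% are therefore too low as V totals, and the shares of the top V genes are too high.

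Several of these V genes have close copies, which bears on single values. Over the last 250 coding bases, Igkv6-20 and Igkv6-29 are 98.0% identical, and Iglv1 is 97.2% identical to Iglv2. Ighv1-82 is 96.4% identical to Ighv1-80, Igkv1-110 is 96.4% identical to Igkv1-117, and Ighv2-9 is 96.0% identical to Ighv2-6-8. Ighv5-17 (closest gene Ighv5-9-1, 89.2%) and Igkv10-96 (closest gene Igkv10-94, 93.6%) stand further from their neighbours. Rearranged V genes also carry somatic mutations. How the authors' counting divided such reads is not given in the sources used here, so values of single V genes are less certain than sums over a locus.

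The V genes at 1 TPM or more were spread along each locus. The 15 heavy chain V genes lay 349 to 2532 kb from Ighm, with a median of 1368 kb, and the annotated V genes of that locus have a median of 1192 kb. The 20 kappa V genes lay 63.1 to 2865 kb from Igkc, with a median of 937 kb against 1318 kb for the annotated genes. Nearer to the constant gene than the annotated median were 7 of the 15 and 11 of the 20. The leading pair of heavy chain V genes lay far apart, Ighv5-17 at 439 kb and Ighv1-82 at 2532 kb from Ighm.

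**Figure D3:**
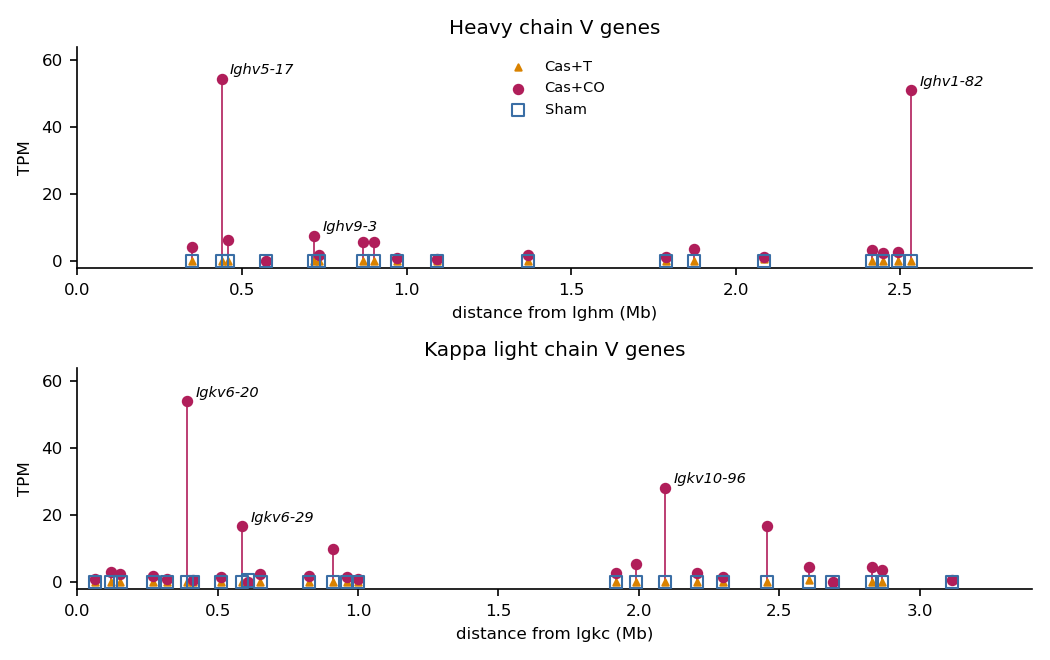
TPM of each listed heavy chain V gene (top) and kappa V gene (bottom) by its distance in Mb from Ighm or Igkc, with triangles for Cas+T, circles on stems for Cas+CO and open squares for Sham. The Cas+CO stems are spread along both loci and are led by Ighv5-17 at 54.6 TPM and Igkv6-20 at 54.2 TPM, while Cas+T and Sham points lie on or near 0.

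Plasma cell genes followed the antibody genes to differing degrees. Jchain (ENSMUSG00000067149; chromosome 5, 88519809 to 88527891), whose product joins the tails of IgA and IgM printed above, was at 0.19 TPM in Cas+T, 37.1 TPM in Cas+CO and 0.18 TPM in Sham. Mzb1, a chaperone of antibody assembly in B and plasma cells, was at 0.80 TPM in Cas+T, 4.12 TPM in Cas+CO and 0.27 TPM in Sham. Tnfrsf17, the plasma cell survival receptor BCMA, was at 0.18 TPM in Cas+T, 0.45 TPM in Cas+CO and 0.15 TPM in Sham. Jchain was far higher in Cas+CO than elsewhere, Mzb1 moderately so, and Tnfrsf17 was too low to be compared under the 1 TPM minimum.

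The B cell receptor and surface genes were lower in level than Ighm and Igkc in every library. In Cas+CO, Cd79a and Cd79b stood above the constant genes Ighg3 (3.15 TPM), Iglc1 (2.80 TPM) and Ighd (1.88 TPM). Cd79a was at 0.45 TPM in Cas+T, 3.39 TPM in Cas+CO and 0.22 TPM in Sham. Cd79b was at 0.23 TPM in Cas+T, 4.02 TPM in Cas+CO and listed at 0 in Sham. Ms4a1, which encodes the B cell surface protein CD20, was at 0.31 TPM in Cas+T, 1.97 TPM in Cas+CO and 0.04 TPM in Sham. All 3 were highest in Cas+CO, where they summed to 9.38 TPM, against 0.99 TPM in Cas+T and 0.26 TPM in Sham. Per TPM of Cd79a, the heavy chain constant genes summed to 15.6 TPM in Cas+T, 45.8 TPM in Cas+CO and 23.4 TPM in Sham, and Jchain came to 0.422 TPM in Cas+T, 10.9 TPM in Cas+CO and 0.818 TPM in Sham. Cd79a itself was under 1 TPM in Cas+T and Sham, which leaves those ratios with an unknown counting error.

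Pigr (ENSMUSG00000026417; chromosome 1, 130826684 to 130852249), the epithelial carrier of polymeric antibody, was at 0.09 TPM in Cas+T, 26.1 TPM in Cas+CO and 0.17 TPM in Sham. The log2 ratio was 4.53 for Cas+CO over Sham and −4.64 for Cas+T over Cas+CO. General epithelial genes lay within 2-fold in the same libraries: Krt18 was at 400 TPM in Cas+T, 471 TPM in Cas+CO and 344.5 TPM in Sham, and Epcam at 386 TPM in Cas+T, 476 TPM in Cas+CO and 289 TPM in Sham. The log2 ratio of Pigr was thus far from theirs, and no error is available for the gap.

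The 250 bases before the start of Pigr are shown because this gene alone among the members is an epithelial one and stood far higher in Cas+CO (RefSeq, GRCm38.p6, plus strand, chr1:130826434-130826683). Capitals mark the E-box CACGTG, first base at −71, and the androgen receptor half-site letters AGAACA, first base at −114, each searched on both strands.
Pigr: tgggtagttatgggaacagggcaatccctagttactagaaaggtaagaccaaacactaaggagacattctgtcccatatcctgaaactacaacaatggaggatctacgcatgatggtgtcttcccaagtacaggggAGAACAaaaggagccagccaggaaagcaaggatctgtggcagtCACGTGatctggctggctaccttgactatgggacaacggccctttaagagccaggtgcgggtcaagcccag
Among 32851 promoter windows of the same length, 6.02% held CACGTG and 16.1% held AGAACA, and a match is a description only. The octamer ATGCAAAT, a motif of antibody gene promoters, was found in 1.60% of the windows and in none of the 4 members that had one (Jchain, Cd79a, Pigr and Tnfrsf17).

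In Cas+CO over Sham, 54 of the 64 genes reached 1 TPM in 1 of the 2 libraries, and all 54 were at least 2-fold higher in Cas+CO, where 37.6% of all 16192 genes compared were higher. No member was lower, where 6.48% of all genes were. The other 10 members were too low to compare, among them Tnfrsf17. Because most of the 54 passed the minimum through Cas+CO alone, this count describes the libraries and lends no support of its own. Of the 15 genes named singly, 14 were compared and all were higher, with a median log2 ratio of 2.92 beside 0.76 over all genes. Only Ighm and Igkc of the 14 reached 1 TPM in Sham, so the same limit holds for this count and this median. After median scaling 13 of these 14 were higher, where 13.7% of all genes were, and none was lower, where 12.4% were. With the 50 most abundant genes of each library kept out of the totals, 60 members were higher, where 28.8% of all genes were, and 1, Igkv8-30, was lower, where 9.47% were.

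In Cas+T over Cas+CO, 52 of the 54 genes compared were at least 2-fold lower, where 23.5% of all 16174 genes were, and none was higher, where 6.89% were. The singly named genes had a median log2 ratio of −2.75 beside −0.46 over all genes. Igkc had the rank of 9 from the bottom of all genes compared, Igha of 18, Jchain of 19 and Pigr of 29. The pair that was compared and not called comprised Ighd, with a log2 ratio of −0.95, and a V gene at 1.40 TPM in Cas+CO, Ighv1-64. After median scaling 45 members were lower, where 12.7% of all genes were, and none was higher, where 10.0% were. Without the 50 most abundant genes in the totals, 58 were lower, where 22.7% of all genes were, and 2, Ighv14-2 and Igkv17-121, were higher, where 8.69% were. The Cas+CO library enters this comparison and that with Sham, so a value that is high there enters both. As deposited, only Ighm and Igkc among the members reached 1 TPM in Cas+T, so most passed the minimum through Cas+CO alone. The counts and the median of this comparison lend no support of their own.

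**Figure D4:**
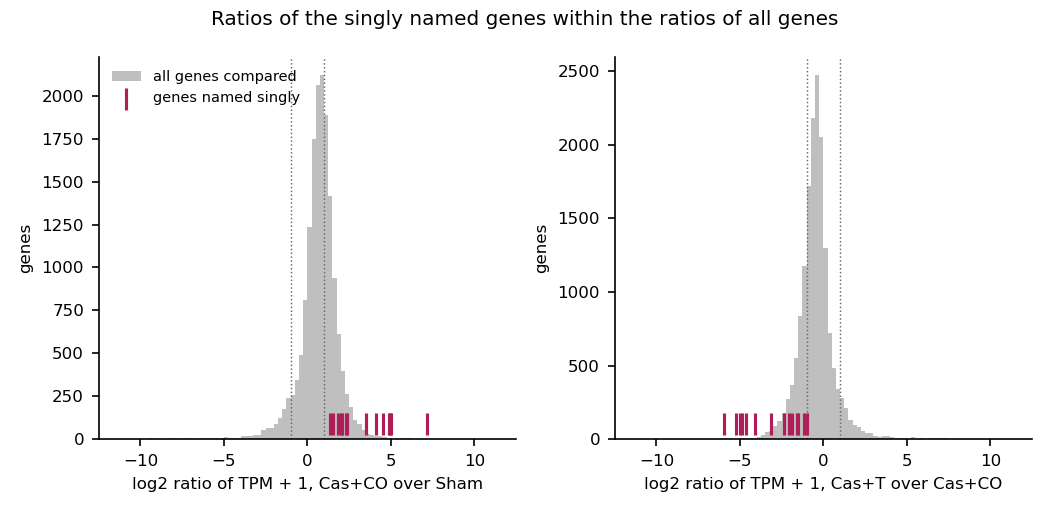
Histogram of log2 ratios of TPM + 1 over all genes compared, for Cas+CO over Sham on the left and Cas+T over Cas+CO on the right, with a tick for each of the 14 singly named genes compared and dotted lines at 2-fold. The ticks lie above the bulk of genes on the left, up to Igkc at 7.20, and below it on the right, down to Igkc at −5.93.

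In Cas+T over Sham, only Ighm and Igkc reached 1 TPM and could be compared. Igkc was higher in Cas+T, with a log2 ratio of 1.26, and 5.21% of all 14635 genes compared were higher. Neither was lower, where 2.76% of all genes were. Ighm was within 2-fold, with a log2 ratio of 0.35. After median scaling neither was past 2-fold, where 2.18% of all genes were higher and 4.09% lower. Without the 50 most abundant genes in the totals, 4 members were higher (Igkc, Igkv17-121, Ighv14-2 and Igkv1-135), where 4.98% of all genes were, and 1, Igkv8-30, was lower, where 4.99% were. The other 62 genes were under 1 TPM in both libraries as deposited, so a difference between Cas+T and Sham was not measurable for them with these files.

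Other genes of the B lineage were counted in the same way, beside the shares of all genes. In Cas+CO over Sham, 37.6% were higher as deposited and 13.7% after median scaling, and 6.48% and 12.4% were lower. In Cas+T over Cas+CO, 23.5% were lower and 6.89% higher. Of 22 surface and signalling genes, 14 were compared, 10 were at least 2-fold higher in Cas+CO than in Sham and 1, Fcmr (0.49 TPM against 4.19 TPM), was lower. Their median log2 ratio was 1.46, beside 0.76 over all genes. Blk, a B cell tyrosine kinase, was at 0.05 TPM in Cas+T, 3.96 TPM in Cas+CO and 0.09 TPM in Sham, and the tetraspanin Cd37 at 1.0 TPM in Cas+T, 5.41 TPM in Cas+CO and 0.50 TPM in Sham. The most abundant genes of this list, Cd24a (457 TPM in Cas+T, 1010 TPM in Cas+CO and 277 TPM in Sham) and the adaptor Blnk (37.5 TPM in Cas+T, 96.7 TPM in Cas+CO and 18.3 TPM in Sham), were well above Blk and Cd37 in every library. In Sham they had these levels where Cd79a was at 0.22 TPM and Ms4a1 at 0.04 TPM. Which cells made Cd24a and Blnk was not tested. After median scaling 5 genes of the list were higher, where 13.7% of all genes were, and 1 lower. In Cas+T against Cas+CO, 9 of 14 were lower, where 23.5% of all genes were, and none was higher.

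Of 10 B lineage transcription factors, 7 were compared and 3 were higher in Cas+CO than in Sham, with a median log2 ratio of 0.92, and 1 was after median scaling. With 37.6% of all genes higher as deposited and 13.7% after median scaling, these counts lie near the background. Ebf1 was at 0.19 TPM in Cas+T, 2.35 TPM in Cas+CO and 0.11 TPM in Sham, and Pou2af1, a B cell coactivator, at 0.91 TPM in Cas+T, 2.40 TPM in Cas+CO and 0.48 TPM in Sham. Bcl11a was at 0.29 TPM in Cas+T, 1.26 TPM in Cas+CO and 0.13 TPM in Sham. Spib, with a log2 ratio of 0.92, was listed at 0 in Cas+T, at 1.15 TPM in Cas+CO and at 0.14 TPM in Sham. Pax5, which keeps B cell identity, stayed under 1 TPM throughout, at 0.04 TPM in Cas+T, 0.21 TPM in Cas+CO and 0.04 TPM in Sham. In Cas+T against Cas+CO, 3 of 7 were lower, where 23.5% of all genes were, and none was higher, where 6.89% were.

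Of 16 plasma cell genes listed in the files, 14 were compared, 4 were higher in Cas+CO than in Sham and 1, Creld2, was lower, with a median log2 ratio of 0.65, under the 0.76 of all genes. The count of higher genes is not above the background of 37.6%, and 6.48% of all genes were lower. Slamf7, a surface receptor of plasma cells, was at 0.06 TPM in Cas+T, 2.43 TPM in Cas+CO and 0.13 TPM in Sham. Tnfrsf13b, a receptor of B cell survival factors, was at 0.19 TPM in Cas+T, 1.78 TPM in Cas+CO and 0.16 TPM in Sham. The surface enzyme Cd38 was at 0.62 TPM in Cas+T, 2.41 TPM in Cas+CO and 0.37 TPM in Sham. These 3 were low in level and highest in Cas+CO. Sdc1, the plasma cell marker syndecan 1 and also an epithelial gene, was at 70.6 TPM in Cas+T, 163 TPM in Cas+CO and 54.7 TPM in Sham. Xbp1, a transcription factor of secretory cells, was at 161 TPM in Cas+T, 272 TPM in Cas+CO and 152 TPM in Sham. Creld2, a chaperone of the endoplasmic reticulum, was at 132 TPM in Cas+T, 64.7 TPM in Cas+CO and 141 TPM in Sham. Sdc1, Xbp1 and Creld2 were thus above 50 TPM in every library, also where Jchain was near 0. After median scaling 1 gene of the list was higher, where 13.7% of all genes were, and 2 were lower, where 12.4% were. In Cas+T against Cas+CO, 4 of 14 were lower, where 23.5% of all genes were, and 2 were higher, where 6.89% were. The higher ones were Creld2, with a log2 ratio of 1.02, and Fkbp11, with 1.45.

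Genes that attract or sustain B and plasma cells were compared for 9 of 13 listed, and 7 were higher in Cas+CO than in Sham, where 37.6% of all genes were, and the median log2 ratio of the 9 was 1.59. Once libraries were brought to the same median, 4 were higher, where 13.7% of all genes were. In Cas+T against Cas+CO, 6 of 9 were lower, where 23.5% of all genes were. Cxcl13, the B cell attracting chemokine, was listed at 0 in Cas+T, at 11.5 TPM in Cas+CO and at 0.30 TPM in Sham. Ccl28, which draws IgA plasma cells to mucosal tissue, was at 1.92 TPM in Cas+T, 15.04 TPM in Cas+CO and 1.83 TPM in Sham. Its receptor Ccr10 was listed at 0 in Cas+T, 0 in Cas+CO and 0.06 TPM in Sham. Ccl21a, a chemokine of lymphatic vessels and lymph nodes, was at 1.86 TPM in Cas+T, 36.05 TPM in Cas+CO and 2.26 TPM in Sham. Cxcl12, a chemokine that retains plasma cells in bone marrow, was at 26.7 TPM in Cas+T, 93.8 TPM in Cas+CO and 19.25 TPM in Sham. Of 7 precursor and germinal centre genes listed, 4 were compared and 3 were higher, where 37.6% of all genes were, and 1 was after median scaling, where 13.7% were. Bcl6, a germinal centre factor also made in other cells, was at 2.20 TPM in Cas+T, 11.8 TPM in Cas+CO and 1.16 TPM in Sham. Mybl1 was at 1.92 TPM in Cas+T, 3.67 TPM in Cas+CO and 0.64 TPM in Sham. Vpreb1, part of the surrogate light chain of B cell precursors, was at 1.23 TPM in Cas+CO and listed at 0 in Cas+T and in Sham. S1pr2 was compared and not called, at 0.51 TPM in Cas+T, 1.81 TPM in Cas+CO and 0.48 TPM in Sham.

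Summed markers of red blood cells, adipocytes, macrophages and T cells were also highest in Cas+CO, though single T cell markers went both ways. The counts of each list again stand beside 37.6% of all genes higher in Cas+CO than in Sham as deposited and 13.7% after median scaling. The shares of all genes lower were 6.48% as deposited and 12.4% after median scaling. Red blood cell markers summed to 45.2 TPM in Cas+T, 2731 TPM in Cas+CO and 82.9 TPM in Sham, and 5 of 5 were higher in Cas+CO than in Sham (4 after median scaling). The haemoglobin gene Hbb-bs was at 14.9 TPM in Cas+T, 1043 TPM in Cas+CO and 28.3 TPM in Sham. Adipocyte markers summed to 94.7 TPM in Cas+T, 1528 TPM in Cas+CO and 37.2 TPM in Sham, with 8 of 8 higher (8 after median scaling). Cfd, which encodes adipsin, was at 17.0 TPM in Cas+T, 524 TPM in Cas+CO and 6.21 TPM in Sham. Macrophage markers summed to 133 TPM in Cas+T, 677 TPM in Cas+CO and 84.3 TPM in Sham, with 9 of 10 higher (3 after median scaling). The lysozyme gene Lyz2 was at 84.5 TPM in Cas+T, 496 TPM in Cas+CO and 34.1 TPM in Sham. T cell markers summed to 5.68 TPM in Cas+T, 28.7 TPM in Cas+CO and 7.48 TPM in Sham. Of the 12 listed, 5 were compared, 3 were higher and 1, Zap70, was lower (1 higher and 1 lower after median scaling). Trac, the constant gene of the T cell receptor alpha chain, was at 0.55 TPM in Cas+T, 16.1 TPM in Cas+CO and 0.13 TPM in Sham. Trbc1, of the beta chain, was listed at 0 in Cas+T, at 2.01 TPM in Cas+CO and at 0.23 TPM in Sham. Cd3g was at 0.14 TPM in Cas+T, 1.68 TPM in Cas+CO and listed at 0 in Sham. Zap70, a kinase of T cell receptor signalling, was at 0.11 TPM in Cas+T, 0.52 TPM in Cas+CO and 3.75 TPM in Sham. Trac and Trbc1 were thus also highest in Cas+CO, while Zap70 was highest in Sham. Trbc2, the other beta chain constant gene listed, was under 1 TPM throughout. It was at 0.23 TPM in Cas+T, 0.43 TPM in Cas+CO and 0.52 TPM in Sham. Of 6 lymph node and lymphatic markers, 3 had a row, and 2 were compared and higher (1 after median scaling). Lyve1 was listed at 0 in Cas+T, at 3.71 TPM in Cas+CO and at 0.31 TPM in Sham. Pdpn was at 15.3 TPM in Cas+T, 21.8 TPM in Cas+CO and 9.93 TPM in Sham. Against Sham, Cas+CO was lower by 2-fold or more for the epididymal markers Crisp1, Gpx5, Adam7, Lcn5, Lcn12 and Ros1. The part that blood, fat, lymphoid tissue or the loss of epithelial RNA has in the antibody gene values was not tested.

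**Figure D5:**
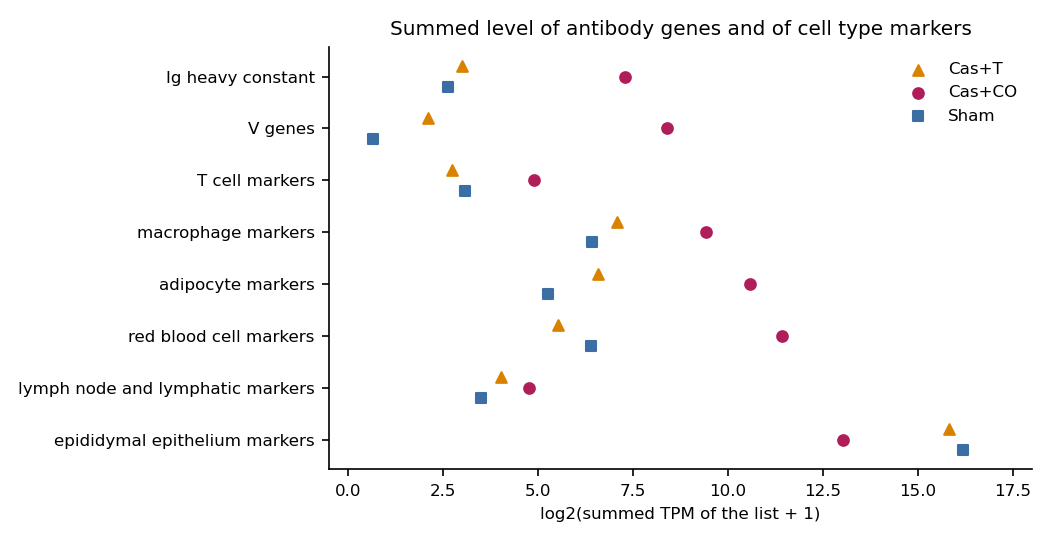
Summed level of the heavy chain constant genes, the V genes and each list of cell type markers on a log2(summed TPM + 1) axis, with triangles for Cas+T, circles for Cas+CO and squares for Sham. In every row but the last the Cas+CO circle lies furthest right, and in the row of epididymal markers it lies furthest left (8280 TPM, against 57701 TPM in Cas+T and 75042 TPM in Sham).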

How the data were processed

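RNA of mouse epididymis was sequenced in 1 library for each of 3 groups. Each deposited file gives the authors' log2 values, 1 per gene. The aligner, counting tool, genome build and strandedness were not given in the sources used here. As the deposited log2 values give multiples of 0.01 (within 0.001) that sum to 1000000 once 2 is raised to them and 1 is subtracted, they were read as log2(TPM + 1). Rows were kept as listed. Rows without a symbol (937 of 23538) were named through GENCODE M21 (GRCm38) identifiers only for marker lists and for an added alternative. The annotation matched 23518 rows, and coordinates come from it.

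The members, lists and limits were chosen with earlier results of these data known. Ratios used a pseudocount of 1 TPM, a minimum of 1 TPM in 1 of the 2 libraries and a 2-fold limit. With 1 library per group no test was possible, so no p-value is given. Named were all singly listed genes, every constant gene, and the top 5 heavy and kappa and the top 3 lambda V genes per library. From each list, the rule took up to 4 compared genes with the largest Cas+CO over Sham log2 ratios in either direction. For markers of other cell types the text gives sums and only some of these genes. List members outside that rule (Fcmr, Creld2, Pax5, Xbp1, Ccr10, Fkbp11, Trbc2, Crisp1, Ros1, Krt8, Krt18 and Epcam) were picked with their values in view, for their role or because they moved the other way. Some list members are not reported here by name. The Ig V identities used edlib 1.3.9.post1. The ratio script was tested on simulated data with 4-fold changes planted in genes at 10 TPM or more. That test did not cover genes near 0, where most members lay in Cas+T and Sham. Alternatives changed the pseudocount to 0.1 TPM, dropped the minimum or set it to 10 TPM, scaled libraries to 1 median, took totals without the 50 top genes per library, or used a 4-fold limit, only genes above 0 in both libraries, the singly named genes alone, or V limits of 0.5, 2 and 5 TPM. Class shares were also taken without Ighd, and kappa shares from constant genes or without the top V gene of each locus. Software was Python 3.11.15, NumPy 2.4.6, pandas 2.3.3 and matplotlib 3.10.9.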

Additional observations from a re-analysis of the deposited data

Results flagged for a closer look

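A further set of V genes lay outside the group as it was chosen. In 26 rows the files give an identifier and no symbol, and GENCODE M21 names these identifiers as 13 heavy chain and 13 kappa V genes, 4 of them pseudogenes. They summed to 0.89 TPM in Cas+T, 75.8 TPM in Cas+CO and 0.53 TPM in Sham, so a signal stood in unused rows above the level in the Sham library. At 1 TPM or more there were none in Cas+T, 10 in Cas+CO and none in Sham. The highest was Igkv4-53, at 22.5 TPM in Cas+CO and listed at 0 in Cas+T and in Sham, which would place it next after Igkv10-96 among the kappa genes. Ighv3-5 was at 13.5 TPM in Cas+CO and listed at 0 in both others, and would come next after Ighv1-82 among the heavy chain genes. With these rows, 47 V genes in place of 37 reached 1 TPM in Cas+CO.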

How the results depend on the processing

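With no spread to set a change against, a value was taken to move when it changed by over 1.5 times: 40 values did not and 16 did. Some of the 40 could not have moved. With a pseudocount of 1 TPM, a 2-fold ratio already requires 1 TPM in the higher library, so dropping the minimum changes no count. Igha, listed at 0 in Cas+T, keeps its share there without Ighd. The number of members higher in Cas+CO than in Sham was 54 as reported. It was 14 with a minimum of 10 TPM, 31 at a 4-fold limit, 12 with genes at 0 left out and 14 for the singly named genes alone. The number lower in Cas+T than in Cas+CO was 52 as reported, with 14 at the minimum of 10 TPM, 28 at a 4-fold limit, 13 with genes at 0 left out and 13 for the singly named genes alone. Without the 50 most abundant genes in the total, 2 members in place of 0 were higher for Cas+T over Cas+CO. For Cas+T over Sham the 1 member higher became 0 with a minimum of 10 TPM, 0 with median scaling, 0 at a 4-fold limit and 4 without the 50 most abundant genes in the total. V genes numbered 13 in Cas+CO at a limit of 5 TPM, and 5 in Cas+T and 1 in Sham at 0.5 TPM. Each of these settings changes which genes can be counted or the scale itself. The Igha share in Cas+CO was 23.8% without Ighd, and the kappa share was 95.3% from constant genes and 98.7% without the top V gene of each locus. No paired analysis was possible because each group has 1 library. The depth behind each value is unknown, which limits all genes near 1 TPM. The alternative with rows lacking a symbol was chosen after seeing the data.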

Other observations

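Genes for receptors and carriers of antibody on other cells stood high in the same library. Of 8 listed, 6 were compared, 5 were at least 2-fold higher in Cas+CO than in Sham where 37.6% of all genes were. None was lower, and their median log2 ratio was 2.43, beside 0.76 over all genes. With libraries at the same median 4 were higher, where 13.7% of all genes were. Fcgr2b, the inhibitory IgG receptor of B cells and myeloid cells, was at 1.53 TPM in Cas+T, 69.2 TPM in Cas+CO and 1.41 TPM in Sham. Fcgr3, an activating IgG receptor, was at 2.77 TPM in Cas+T, 21.2 TPM in Cas+CO and 1.72 TPM in Sham. Fcer1g, the shared signalling chain of Fc receptors, was at 3.13 TPM in Cas+T, 25.4 TPM in Cas+CO and 3.58 TPM in Sham. Fcgrt, the neonatal Fc receptor that recycles IgG, was at 12.0 TPM in Cas+T, 57.0 TPM in Cas+CO and 10.5 TPM in Sham. In Cas+T over Cas+CO, 4 of 6 were lower, where 23.5% of all genes were, and none was higher. The Fcgr2b level in Cas+CO was well above that of Ms4a1, at 1.97 TPM, the B cell surface gene of the same library.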
